A study of Rattus norvegicus with 6 samples.

Results

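The unfolded protein response was followed at 10 genes, namely *Hspa5*, *Ddit3*, *Xbp1*, *Atf4*, *Atf6*, *Ern1*, *Eif2ak3*, *Dnajb9*, *Herpud1* and *Wfs1*. Every accessible chromatin site (ACS) for which the deposited table names one of these genes as the nearest gene was taken, whatever its counts. This gave 95 of the 101603 distinct ACS, at 10 of the 14776 nearest genes. *Dnajb9* had 28 ACS, *Atf6* 12, *Ern1* 11, *Hspa5* 9, *Eif2ak3* and *Herpud1* 8 each, *Wfs1* and *Xbp1* 7 each, *Ddit3* 3 and *Atf4* 2. The nearest gene is a label of position, and no measurement here ties a distant ACS to the gene it is listed under. Some genes that lie next to these 10 in RefSeq order on the GRCr8 assembly are the nearest gene of no ACS in the table, namely *Gapvd1* beside *Hspa5*, *Mbd6* beside *Ddit3*, *Znrf3* beside *Xbp1*, *Tex2* beside *Ern1* and *Nlrc5* beside *Herpud1*, so an ACS near one of them may carry the label of its neighbour.

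Open chromatin was measured by ATAC-seq, in which the Tn5 transposase inserts adapters where DNA is accessible, in dissociated cells of untreated rat pancreatic islets. The Adult group was 3 libraries from 3-month-old male Sprague–Dawley rats, 1 rat each, numbered 4, 5 and 6. The P10 group was 3 libraries from pups at postnatal day 10, numbered 1, 2 and 3, each from a mix of a few pups, with 3 litters used. The paper kept male and female pups and does not give the sex of those in each library. Pup pancreases were pooled and digested with collagenase by hand shaking, whereas in adults collagenase was injected into the pancreatic duct. Age, sex, islet isolation and single against mixed animals therefore cannot be told apart. Values are Tn5 integrations in CPM, per 1000000 integrations in ACS after TMM scaling, listed in the order of the library numbers, with ± for the SD over the 3 libraries of a group. The adult libraries held 7916919 to 11903909 integrations in ACS and the P10 libraries 13491534 to 21168463, which left a median of 44 to 81 integrations per ACS of the 10 genes in adults and of 82 to 140 at P10. Over all ACS these medians were lower, at 36 to 53 in adults and 63 to 96 at P10. Islets hold several cell types, so a change per cell and a change in the share of a cell type cannot be told apart in these bulk libraries.

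When unfolded proteins build up in the endoplasmic reticulum (ER), 3 sensors in its membrane respond. PERK, encoded by *Eif2ak3*, slows translation and favours the making of ATF4, which in turn activates *Ddit3* (CHOP). IRE1 alpha, encoded by *Ern1*, splices the messenger RNA of *Xbp1*, and ATF6 is cut free from the membrane to act as a transcription factor. XBP1 and ATF6 raise chaperone and degradation genes such as *Hspa5* (BiP), *Dnajb9* (ERdj4) and *Herpud1*. Beta cells rely on this response because they make proinsulin in large amounts, and loss of *Wfs1* (wolframin) or of PERK is known to cause diabetes.

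The promoters of *Hspa5*, *Xbp1* and *Herpud1* are shown because they hold the ER stress response elements through which ATF6 and XBP1 are known to act. The sequences are the 250 bases upstream of the gene start in RefSeq on the GRCr8 assembly, which is not the Rn5 assembly of the ACS, written 5′ to 3′ on the strand of the gene. Capitals mark the element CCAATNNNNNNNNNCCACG (ERSE) in *Hspa5* and *Xbp1*, and ATTGGNCCACG (ERSE-II) and TTGCATCA (an amino acid response element) in *Herpud1*.
Hspa5, chr3:38452766-38453015 (plus strand): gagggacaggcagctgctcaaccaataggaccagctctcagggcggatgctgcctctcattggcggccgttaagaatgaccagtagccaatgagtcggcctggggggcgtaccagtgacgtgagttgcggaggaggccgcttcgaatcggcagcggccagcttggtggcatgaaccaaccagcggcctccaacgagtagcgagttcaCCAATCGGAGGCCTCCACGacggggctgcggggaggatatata
Xbp1, chr14:84604373-84604622 (plus strand): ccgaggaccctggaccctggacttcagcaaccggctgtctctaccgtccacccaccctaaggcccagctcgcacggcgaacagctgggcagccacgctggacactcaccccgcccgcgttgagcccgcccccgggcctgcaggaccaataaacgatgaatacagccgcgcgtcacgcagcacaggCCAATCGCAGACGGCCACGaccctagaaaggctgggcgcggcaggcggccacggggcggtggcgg
Herpud1, chr19:10614708-10614957 (minus strand): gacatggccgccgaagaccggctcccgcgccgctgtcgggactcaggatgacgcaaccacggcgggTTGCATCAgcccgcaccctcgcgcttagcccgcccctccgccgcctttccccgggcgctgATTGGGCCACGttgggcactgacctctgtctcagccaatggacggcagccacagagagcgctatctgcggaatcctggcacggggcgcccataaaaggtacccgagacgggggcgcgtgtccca

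Of the 10 genes, 8 had a RefSeq window of 250 bases before to 50 bases after the start, and both strands of it were searched. ERSE lay 43 to 25 bases upstream of the *Hspa5* start and 65 to 47 bases upstream of that of *Xbp1*, whereas it occurred in 0.0657% of all 33469 windows. In *Herpud1*, ERSE-II lay 124 to 114 bases upstream (0.0508% of windows) and the amino acid response element 184 to 177 bases upstream (0.795% of windows). The letters TGACGTGG, the core of the unfolded protein response element, were in 0.595% of windows, and TGACGTCA, the cyclic AMP response element, in 1.83%. Neither was in a window of the 8 genes. *Atf6* and *Ern1* were not matched. No 2 of these motifs overlapped in the windows shown, and a match describes the letters alone.

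Accessibility at the 95 ACS differed between the ages in both directions and, as over all ACS, mostly away from the gene starts. In edgeR's quasi-likelihood test over all ACS (called at an unadjusted p under 0.05 and a Benjamini-Hochberg FDR under 0.2), 15 were more accessible in adults (Up) and 11 less accessible (Down). Together these were 27.4% of the ACS of the 10 genes, against 18.9% of all ACS. The called share was 15.8% for Up against 12.3% of all ACS, and 11.6% for Down against 6.63%. At the same limits the paper reported more Down than Up ACS, the reverse of the shares over all ACS here. The order over all ACS depended on the scaling. It was 10447 Up and 10732 Down with column sums alone, and 1062 Up and 61663 Down with total sequenced reads as library sizes. The reason for the difference from the paper was not tested. Without *Dnajb9*, 8 of 67 ACS were Up (11.9%) and 10 Down (14.9%). The ages did not overlap at 22.1% of the 95 ACS, against 24.7% of all ACS. No test compared these shares, and the median log2 fold change was -0.06 over the 95 ACS and -0.01 over all. At an FDR under 0.05, 7 were Up and 3 Down, and 8.98% of all ACS were called. The calls fell at 7 genes. *Dnajb9* had 7 Up and 1 Down, *Herpud1* had 5 Down and none Up, and *Hspa5* had 2 of each. *Atf6* and *Ern1* each had 2 Up and 1 Down, *Eif2ak3* had 1 of each, and *Wfs1* had 1 Up. None of the 12 ACS of *Xbp1*, *Ddit3* and *Atf4* was called, and their log2 fold changes lay between -0.53 and 0.20.

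**Figure D1:**
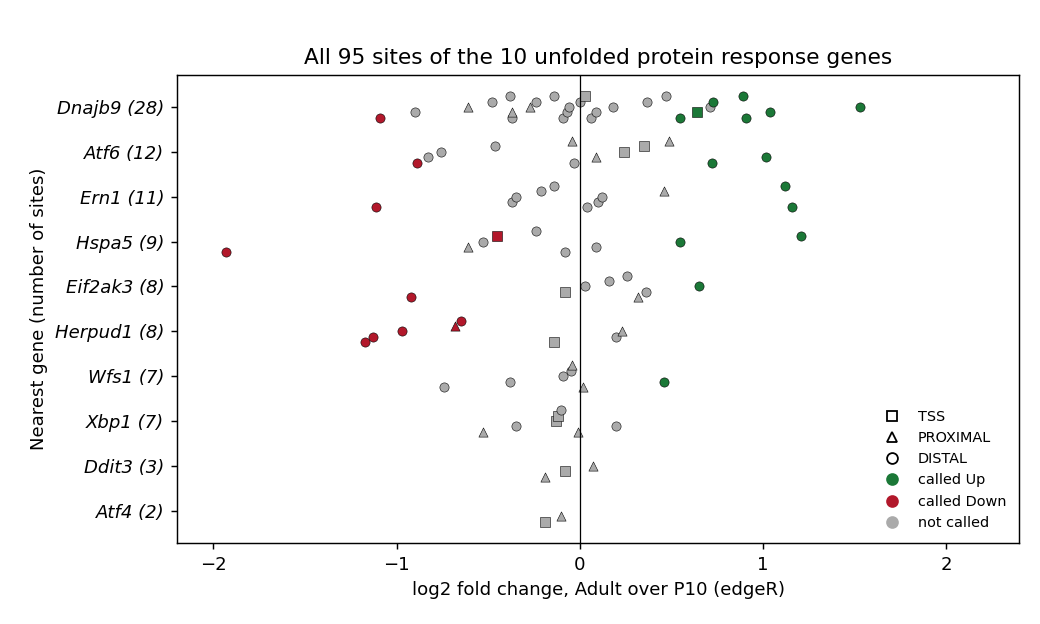
Log2 fold change of Adult over P10 (horizontal axis, edgeR) for each of the 95 ACS, grouped by nearest gene (vertical axis; small vertical offsets only separate points). Symbols give the class of the ACS and colours its call, and the called points sit at 7 genes, with those of *Herpud1* all below 0 and those of *Dnajb9* above 0 in 7 of 8 cases.

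The split between Up and Down depended on the scaling. It was 15 and 11 (57.7% Up) with TMM, 15 and 7 (68.2% Up) with DESeq2 and its size factors, and 11 and 15 (42.3% Up) with column sums alone, which moved the median of all ACS to -0.10. With total sequenced reads as library sizes, which moved that median to -0.84, it was 1 Up and 66 Down, and 5 of the Up ACS given below (*Atf6* at 122073 bp, *Dnajb9* at 120325 bp, *Eif2ak3* at 15390 bp, *Hspa5* at 133128 bp and *Wfs1* at 22868 bp) had values below 0. All directions here are thus relative to the integrations within ACS. One library also decided many calls. Without Adult replicate 4 the counts were 8 Up and 14 Down, without Adult replicate 6 or P10 replicate 1 they were 14 and 4 each, without P10 replicate 2 they were 7 and 8, and without P10 replicate 3 they were 7 and 10. Over all ACS the counts also moved, from 12504 Up and 6738 Down to 9709 and 5456 without Adult replicate 4. They were 10886 and 5041 without Adult replicate 6, and 12974 and 6892 without P10 replicate 1. Without P10 replicate 2 they were 7973 and 3285, and without P10 replicate 3 they were 8908 and 4232. Of the 26 called ACS, 8 were called in all 6 fits that left out 1 library (6 Up, 2 Down), 13 in 3 to 5 of them and 5 in fewer than 3, while the sign was kept in all 6 fits at each of the 26.

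Adult replicate 4 and P10 replicate 1 stood apart at these genes. Each was the highest library of its group at 53 of the 95 ACS (55.8%), against 37.5% and 36.2% of all ACS. Without both, 8 ACS were Up and 9 Down.

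**Figure D2:**
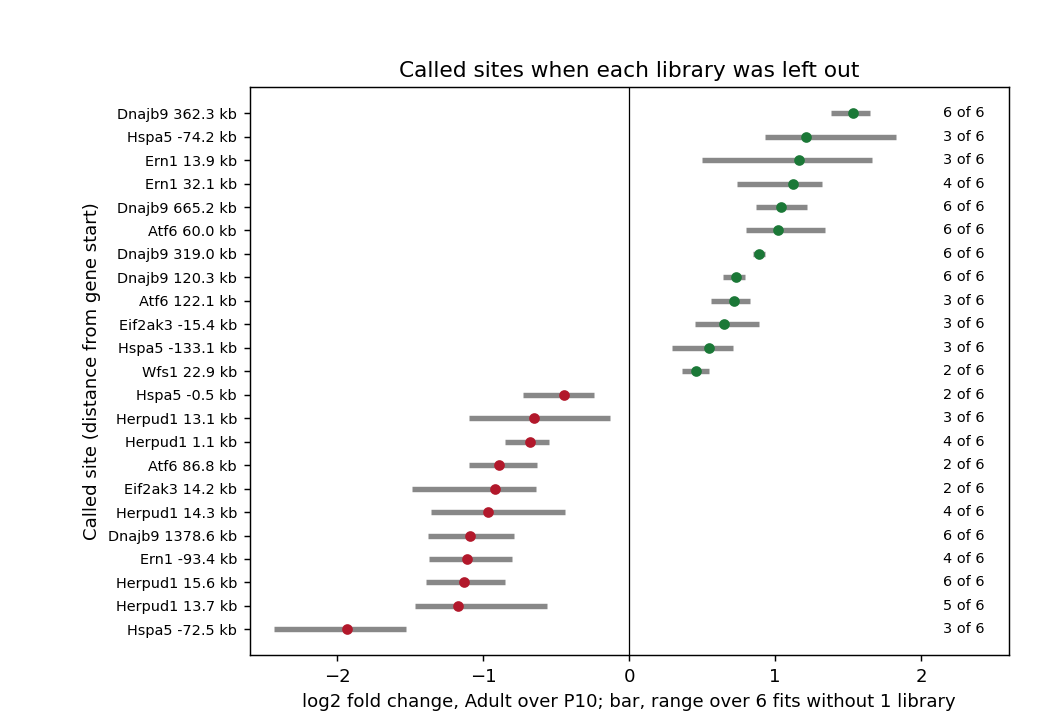
Log2 fold change of Adult over P10 (horizontal axis) at 23 called ACS named by gene and distance from its start, with a point (green for Up, red for Down) for the fit of all 6 libraries, a grey bar for the range over the 6 fits without 1 library, and the number of those fits that kept the call at the right. No bar crosses 0, but the call held in all 6 fits at only 7 of these ACS, 5 of them at *Dnajb9*.

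Most calls were in the distal class, 10 kb or more from a gene start for the 10 genes, where 14 of 66 ACS were Up and 9 Down. These were 34.8%, against 20.2% of all distal ACS (13.8% Up and 6.45% Down). Over all ACS too, most calls were distal, 16281 of 19242. In the proximal class, between 1 and 10 kb, 1 of 18 ACS was Down, the one inside *Herpud1*, and none Up (5.56% called, against 17.9% of all proximal ACS, 11.2% Up and 6.71% Down).

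At the gene starts themselves, most ACS were not called. The TSS class of the table takes ACS less than 1 kb from a gene start, and 11 of the 95 ACS fell in it, at 8 genes. *Ern1* and *Wfs1* had none. Of these 11, 1 was called Up and 1 Down, or 18.2%, against 10.6% of all ACS of this class (2.73% Up and 7.87% Down). The Down call was *Hspa5* and the Up call a second ACS inside *Dnajb9*. The log2 fold changes at the other 9 lay between -0.19 and 0.35.

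**Figure D3:**
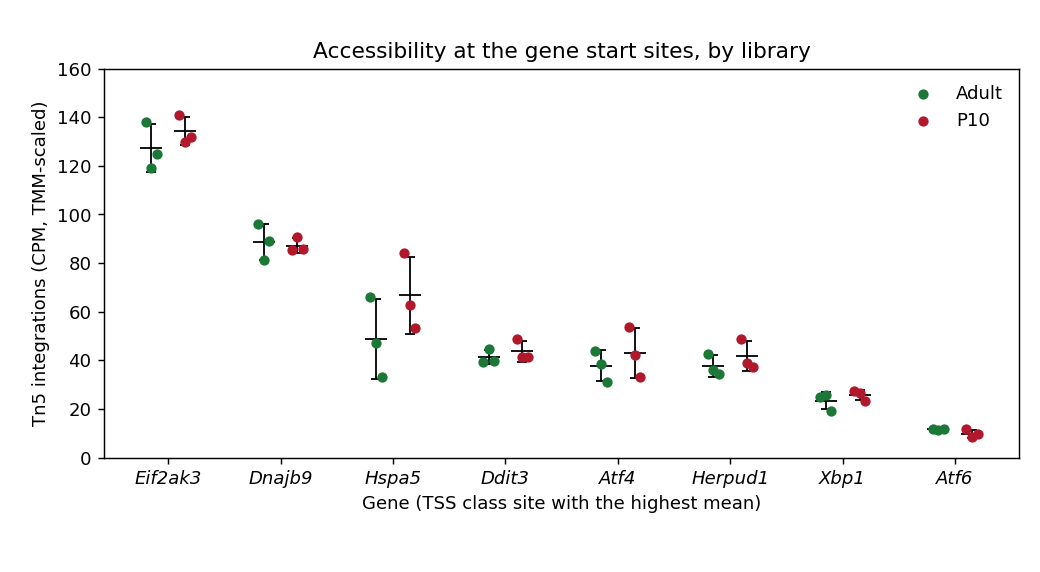
TMM-scaled CPM (vertical axis, linear from 0) at the strongest TSS class ACS of 8 genes, 3 points per age for the libraries, with the mean and SD as bars. Points of the ages overlap at each gene, and in CPM, not divided by width, *Eif2ak3* is the highest and *Atf6* the lowest.

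Per kilobase of ACS, the start of *Eif2ak3* was the most accessible of the 8, at 131 to 156 CPM per kb over the 6 libraries. The start of *Dnajb9* followed at 83.1 to 98.5 CPM per kb, and neither range overlapped with the next. *Ddit3* lay at 61.7 to 76.1 CPM per kb and *Hspa5* at 31.6 to 79.9, so the order of these 2 did not hold beyond the spread. *Xbp1* (29.1 to 41.0), *Herpud1* (31.5 to 44.7) and *Atf4* (26.1 to 44.9) overlapped with each other and with *Hspa5*. The ACS across the start of *Atf6* lay at 12.1 to 23.0 CPM per kb, below the others, but its stronger TSS class ACS 772 bp upstream had 32.1 ± 0.89 CPM per kb (SD, n = 3) in adults and 27.1 ± 4.42 (SD, n = 3) at P10, within the range of *Atf4*.

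At *Eif2ak3*, the PERK gene (Rn5, plus strand), the start ACS at chr4:163427587-163428491 held 138, 119 and 125 CPM in adults and 141, 130 and 132 at P10. The groups overlapped, and the log2 fold change was -0.08 (SE 0.14, edgeR adjusted p = 0.821). With a mean of 131 CPM it stood above 99.5% of all TSS class ACS. An ACS inside the gene, 26503 bp from its start, stood above 92.0% of all TSS class ACS and was level between the ages, at 59.6 ± 1.12 CPM (SD, n = 3) in adults and 58.3 ± 7.01 (SD, n = 3) at P10. This ACS was singled out after its values were seen. The 2 calls of the gene were at weak ACS. At chr4:163412792-163413354, 15390 bp upstream, the values were 8.13, 10.8 and 6.96 CPM in adults and 7.20, 4.99 and 4.33 at P10, a log2 fold change of 0.65 (SE 0.27, edgeR adjusted p = 0.146). Adult replicate 6 lay below P10 replicate 1 there, and the call was lost without Adult replicate 5, P10 replicate 2 or P10 replicate 3. Inside the gene, at chr4:163442368-163442809, 14186 bp from the start, the values were 1.17, 3.12 and 1.42 CPM in adults and 3.81, 3.07 and 3.96 at P10, from 11 to 82 integrations per library. The log2 fold change was -0.92 (SE 0.37, edgeR adjusted p = 0.132), and only the fits without Adult replicate 5 or P10 replicate 2 kept the call.

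*Ern1*, the IRE1 alpha gene (Rn5, minus strand), had 11 ACS and none within 1 kb of its annotated start. Inside the gene, 2 of 4 ACS were called Up, against 12.3% of all ACS. The first, at chr10:94386801-94387013 and 13942 bp from the start, held 4.52, 2.05 and 1.29 CPM in adults and 1.86, 0.499 and 1.11 at P10, a log2 fold change of 1.16 (SE 0.46, edgeR adjusted p = 0.121). Adult replicate 4 was the highest library and the groups overlapped. The second, at chr10:94368671-94368907 and 32072 bp from the start, held 3.89, 2.43 and 1.93 CPM in adults and 1.58, 1.71 and 0.582 at P10, without overlap, a log2 fold change of 1.12 (SE 0.42, edgeR adjusted p = 0.0974). Both calls were lost without Adult replicate 4 or P10 replicate 3, and the first also without P10 replicate 2. Upstream of *Ern1*, 1 of 7 ACS was called, against 20.2% of all distal ACS. It lay at chr10:94494185-94494403, 93442 bp before the start, with 1.36, 1.56 and 0.516 CPM in adults and 3.53, 2.0 and 2.06 at P10, a log2 fold change of -1.11 (SE 0.42, edgeR adjusted p = 0.105). All adult libraries were below all P10 libraries there, but the fewest integrations in a library were 4, and the call was lost without Adult replicate 6 or P10 replicate 1. The strongest ACS of *Ern1*, 28671 bp upstream, had a mean of 23.8 CPM and a log2 fold change of -0.35 and was not called.

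*Atf6*, the gene of the sensor that becomes a transcription factor (Rn5, minus strand), had weak ACS at its start and its calls deep inside the gene. The ACS with the highest mean in the TSS class, at chr13:93855616-93855978 and 772 bp upstream, held 11.9, 11.3 and 11.7 CPM in adults and 11.6, 8.42 and 9.52 at P10. The log2 fold change was 0.24 (SE 0.22, edgeR adjusted p = 0.607), so the ages were not told apart. Of 7 distal ACS inside the gene, 5 had no overlap between the ages, 2 with adults above and 3 with adults below, and non-overlapping groups occurred at 24.7% of all ACS. At chr13:93794852-93795221, 59992 bp from the start, adults had 9.67, 6.33 and 7.61 CPM and P10 islets 5.44, 3.42 and 2.75. This was a 2.02-fold difference, with a log2 fold change of 1.02 (SE 0.29, edgeR adjusted p = 0.0255) that was called in all 6 fits without 1 library. At chr13:93732771-93733193, 122073 bp from the start, adults had 10.6, 7.79 and 7.86 CPM and P10 islets 6.14, 4.56 and 5.18, a log2 fold change of 0.72 (SE 0.26, edgeR adjusted p = 0.0787). That call was lost without Adult replicate 4, P10 replicate 2 or P10 replicate 3. The third call went the other way. At chr13:93768049-93768334, 86795 bp from the start, adults had 1.81, 1.46 and 1.42 CPM and P10 islets 3.86, 2.78 and 2.06, a log2 fold change of -0.89 (SE 0.37, edgeR adjusted p = 0.156), and only the fits without Adult replicate 4 or P10 replicate 3 kept this call. The Up and Down ACS thus lay within the same gene body, which spans 182781 bp in the table.

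The transcription factor genes downstream of the sensors showed no called ACS. *Xbp1* (Rn5, plus strand) held 25.1, 25.6 and 19.3 CPM in adults and 27.2, 26.6 and 23.2 at P10 at its start, chr14:86423391-86424054, a log2 fold change of -0.13 (SE 0.18, edgeR adjusted p = 0.76). *Atf4* (Rn5, plus strand) held 43.7, 38.5 and 31.2 CPM in adults and 53.7, 42.4 and 33.3 at P10 at chr7:121467833-121469029, a log2 fold change of -0.19 (SE 0.18, edgeR adjusted p = 0.626). The start of *Ddit3*, which encodes the stress factor CHOP (Rn5, plus strand), held 39.5, 44.6 and 39.6 CPM in adults and 48.7, 41.2 and 41.2 at P10 at chr7:70754017-70754656, a log2 fold change of -0.08 (SE 0.16, edgeR adjusted p = 0.834). The ages overlapped at all 3 starts. None of the 3 was called in any of the 6 fits without 1 library.

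*Hspa5* encodes BiP, the main chaperone of the ER lumen (Rn5, plus strand). Its start, chr3:19157330-19158384, held 66.1, 47.2 and 33.3 CPM in adults and 84.3, 62.6 and 53.2 at P10. The means were 48.8 ± 16.5 (SD, n = 3) and 66.7 ± 15.9 (SD, n = 3), or 1.36-fold higher at P10, and the ages overlapped because Adult replicate 4 was above P10 replicates 2 and 3. The log2 fold change of -0.45 (SE 0.20, edgeR adjusted p = 0.183) was called Down close to the limit, and the call was lost without Adult replicate 5, Adult replicate 6, P10 replicate 1 or P10 replicate 2. Without both Adult replicate 4 and P10 replicate 1 it was called, at -0.54 (edgeR adjusted p = 0.102). Its promoter is the first sequence shown above. The next strong ACS, 1834 bp wide and 1357 bp past the gene end at chr3:19163690-19165523, was named after its values were seen. It held 51.1, 25.8 and 20.2 CPM in adults and 84.2, 32.9 and 31.2 at P10, a log2 fold change of -0.61 (SE 0.29, edgeR adjusted p = 0.221), and was not called. Adult replicate 4 and P10 replicate 1 were the highest of their groups at both.

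Upstream of *Hspa5*, the side on which *Gapvd1* lies, 3 of 7 ACS were called, against 20.2% of all distal ACS. At chr3:19024746-19025576, 133128 bp upstream, adults had 27.0, 18.7 and 15.6 CPM and P10 islets 17.1, 13 and 11.9, a log2 fold change of 0.55 (SE 0.22, edgeR adjusted p = 0.133). At chr3:19083655-19083874, 74219 bp upstream, adults had 5.87, 2.63 and 5.16 CPM and P10 islets 3.25, 1.07 and 1.43, a log2 fold change of 1.21 (SE 0.39, edgeR adjusted p = 0.0474). The groups overlapped at both, and both calls were lost without Adult replicate 4, P10 replicate 2 or P10 replicate 3. The largest value of the 95 ACS, a log2 fold change of -1.93 (SE 0.74, edgeR adjusted p = 0.109) at chr3:19085423-19085654, 72451 bp upstream, rested on 1, 2 and 2 integrations in adults and 4, 13 and 19 at P10. The groups overlapped at this depth, and its SE was the widest of the set. The call was lost without Adult replicate 4, P10 replicate 2 or P10 replicate 3.

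*Dnajb9* encodes ERdj4, a co-chaperone of BiP (Rn5, minus strand). Its start, chr6:73758406-73759381, was among the strongest and most level, with 96.1, 81.1 and 89.1 CPM in adults and 85.2, 90.7 and 85.7 at P10, a log2 fold change of 0.03 (SE 0.14, edgeR adjusted p = 0.951). That sign flipped with column sums, total reads, a minimum mean of 50 counts, and without Adult replicate 4 or P10 replicate 1. A second ACS inside the gene, at chr6:73757793-73758095 and 981 bp from the start, held 29.3, 17.7 and 19.5 CPM in adults and 17.7, 12.1 and 12.8 at P10. It was called Up at 0.64 (SE 0.22, edgeR adjusted p = 0.0679) with all libraries but not without Adult replicate 4, P10 replicate 2 or P10 replicate 3, and was named after its values were seen. So was an ACS 55059 bp upstream, level between the ages at 74.1 ± 7.07 CPM (SD, n = 3) in adults and 77.2 ± 2.53 (SD, n = 3) at P10. *Pnpla8*, which lies near *Dnajb9* on that side in RefSeq order on GRCr8, is not the nearest gene of any ACS in the table.

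The changed ACS of *Dnajb9* were spread over a long stretch downstream. Its farthest ACS was 1378633 bp from the start, and 16 of its 23 distal ACS lay more than 100 kb away. Of these 16, 5 were Up and 1 Down, against 13.8% Up and 6.45% Down of all distal ACS. At chr6:73638449-73639087, 120325 bp downstream, adults had 36.0, 34.9 and 36.4 CPM and P10 islets 21.6, 19.5 and 23.6, a log2 fold change of 0.73 (SE 0.17, edgeR adjusted p = 0.00633). At chr6:73439795-73440296, 318979 bp downstream, adults had 15.2, 14.5 and 15.5 CPM and P10 islets 7.72, 8.70 and 7.93, a log2 fold change of 0.89 (SE 0.22, edgeR adjusted p = 0.00786). Replicates of an age were close at both, and the ages were far apart relative to that spread. The smallest p of the 95 ACS was at chr6:73396458-73396731, 362316 bp downstream, where adults had 9.58, 7.11 and 9.02 CPM and P10 islets 2.42, 3.28 and 3.22, a 2.89-fold difference with a log2 fold change of 1.53 (SE 0.28, edgeR adjusted p = 0.000492). At chr6:73093558-73094193, 665216 bp downstream, adults had 24.7, 15.1 and 21.4 CPM and P10 islets 9.44, 8.49 and 11.8, a log2 fold change of 1.04 (SE 0.22, edgeR adjusted p = 0.00273). The Down ACS was the farthest, at chr6:72380141-72380486, with 1.81, 3.31 and 4.38 CPM in adults and 5.44, 8.42 and 6.13 at P10, a log2 fold change of -1.09 (SE 0.32, edgeR adjusted p = 0.0278). No age overlapped with the other at any of these 5 ACS, and each call held in all 6 fits without 1 library. Between the Up ACS lay others of no call, from -0.90 to 0.71. The remaining 2 Up calls of *Dnajb9* had log2 fold changes of 0.55 and 0.91.

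*Herpud1* encodes an ER membrane protein that takes part in the degradation of misfolded proteins (Rn5, minus strand). Its start, chr19:11037547-11038635, held 42.7, 35.9 and 34.3 CPM in adults and 48.7, 39.1 and 37.1 at P10, with overlap and a log2 fold change of -0.14 (SE 0.17, edgeR adjusted p = 0.704). Just inside the gene, at chr19:11036860-11037231 and 1116 bp from the start, adults had 7.50, 6.91 and 5.16 CPM and P10 islets 11.8, 11.6 and 8.30. All adult libraries were lower, with a log2 fold change of -0.68 (SE 0.25, edgeR adjusted p = 0.0891) that was lost without Adult replicate 6 or P10 replicate 2.

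The other 4 Down calls of *Herpud1* formed a cluster of 4290 bp past the end of the gene, at chr19:11022379-11026668. It held all 4 ACS within 5 kb of that end, and 7.49% of all ACS up to 5 kb past a gene end were called Down. The ACS 961 bp past the end, 1820 bp wide, held 47.0, 29.8 and 15.1 CPM in adults and 78.7, 30.2 and 36.2 at P10, a log2 fold change of -0.65 (SE 0.29, edgeR adjusted p = 0.178). At 2812 bp past the end the values were 7.68, 3.70 and 5.67 CPM in adults and 21.7, 7.49 and 9.15 at P10, a log2 fold change of -1.17 (SE 0.32, edgeR adjusted p = 0.0197). At 3480 bp they were 8.13, 4.97 and 3.48 CPM in adults and 17.6, 7.92 and 7.19 at P10, a log2 fold change of -0.97 (SE 0.32, edgeR adjusted p = 0.0559). P10 replicate 1 was far above the other libraries at these 3 ACS, the ages overlapped, and without it none of the 3 was called. Without both that library and Adult replicate 4, all 3 were again called Down, at -0.57, -0.86 and -0.84 (edgeR adjusted p = 0.161, 0.103 and 0.117). The first also lost its call without Adult replicate 5 or 6 and the third without Adult replicate 6. Without 1 library, the log2 fold change ranged from -1.10 to -0.13, from -1.47 to -0.56 and from -1.36 to -0.44 at these 3. The fourth, chr19:11022379-11023038 and 4591 bp past the end, had 6.78, 4.97 and 9.54 CPM in adults and 20.9, 12.1 and 13.1 at P10, with no overlap. Its log2 fold change of -1.13 (SE 0.26, edgeR adjusted p = 0.00537) was called in all 6 fits without 1 library. Summed over the cluster, the CPM were 69.6, 43.4 and 33.8 in adults and 139, 57.7 and 65.6 at P10. *Nlrc5* is the neighbour on that side.

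**Figure D4:**
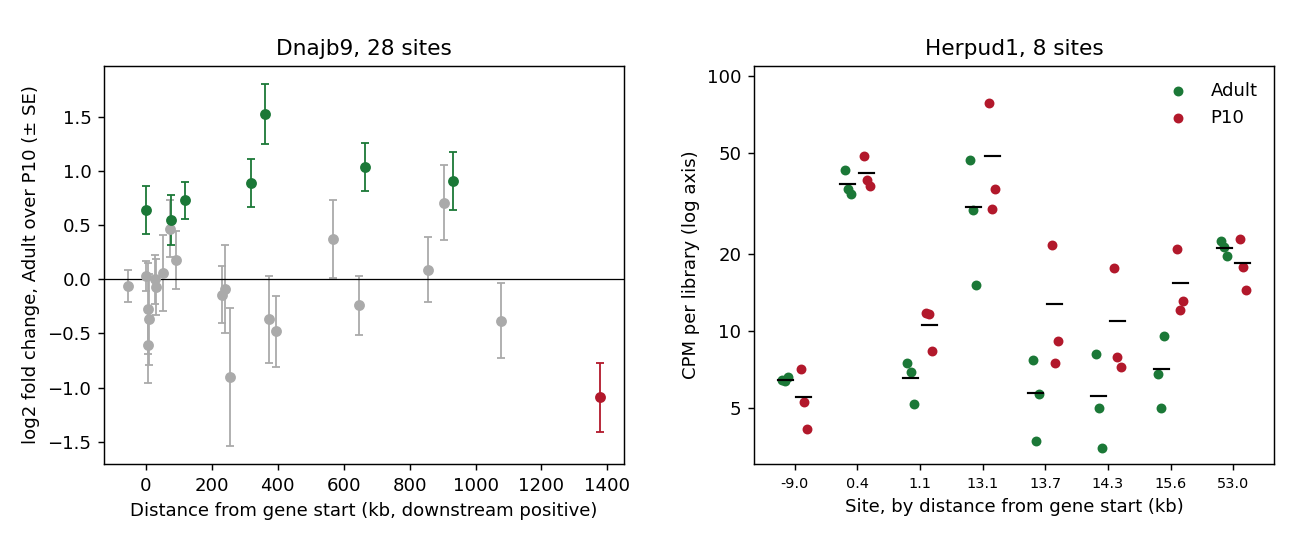
Left, log2 fold change of Adult over P10 with its SE at the 28 ACS of *Dnajb9* by distance from the gene start in kb, green for Up, red for Down and grey for no call. Right, TMM-scaled CPM per library (log axis) at the 8 ACS of *Herpud1* in order of distance, with a line for each group mean. The Up ACS of *Dnajb9* stand among neighbours of no call, and at *Herpud1* the ACS from 13.1 to 15.6 kb show 1 P10 library well above the rest.

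*Wfs1* encodes wolframin, a protein of the ER membrane (Rn5, plus strand). It had no ACS within 1 kb of its annotated start, and its strongest ACS, 8458 bp upstream at chr14:78605283-78606144, was named after its values were seen. It held 87.7, 73.7 and 83.3 CPM in adults and 88.2, 84.4 and 78.5 at P10, above 99.2% of all ACS, with a log2 fold change of -0.04 (SE 0.15, edgeR adjusted p = 0.929). The 1 call was 22868 bp from the start and 5920 bp past the gene end, at chr14:78636609-78637194. Adults had 31.0, 24.6 and 27.6 CPM there and P10 islets 22.9, 17.7 and 19.9, without overlap, a log2 fold change of 0.46 (SE 0.19, edgeR adjusted p = 0.132). Only the fits without Adult replicate 5 or P10 replicate 1 kept it.

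Summed over all ACS of a gene, only *Herpud1* was called, with 139, 116 and 103 CPM in adults and 220, 132 and 134 at P10. The mean was 119 ± 18.2 CPM (SD, n = 3) in adults and 162 ± 50.2 CPM (SD, n = 3) at P10, and P10 replicate 1 was the highest library. The log2 fold change was -0.44 (SE 0.16, edgeR adjusted p = 0.126 over 14776 genes). Without that library, Adult replicate 5 or Adult replicate 6 no sum was called. Of all genes, 18.2% were called by their sums, 10.5% Up and 7.63% Down. The other 9 sums had log2 fold changes from -0.30 (*Hspa5*) to 0.18 (*Dnajb9*), so the Up ACS of *Dnajb9* did not carry its sum past the limit. Of the integrations at the 95 ACS, 34.2 ± 0.677% (SD, n = 3) in adults and 35.5 ± 1.18% (SD, n = 3) at P10 fell in the TSS class, a difference of -1.35 percentage points (exact permutation test, two-sided, p = 0.2, where 3 libraries against 3 cannot go below 0.1). Over all ACS that share was 26.4, 24.8 and 25.1% in adults and 28.6, 28.5 and 27.4% at P10, lower in all adult libraries.

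A wider list of the pathway held 71 gene symbols, some of them alternative names for the same gene, such as *Ero1l* and *Ero1a*. It gave 357 ACS at 61 genes. Of these, 36 were Up and 28 Down, or 17.9%, against 18.9% of all ACS. ER chaperones and folding enzymes had 4 Up and 4 Down of 69 ACS, and genes of ER-associated degradation 9 Up and 10 Down of 73. The PERK and integrated stress response arm had 7 Up and 3 Down of 67, partners of ATF6 and IRE1 10 Up and 4 Down of 54, and apoptosis and calcium genes 6 Up and 7 Down of 94. Of 65 TSS class ACS, 1 was Up and 6 Down, or 10.8%, against 10.6% of all TSS class ACS, and the PERK arm had none of 14.

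The 1 Up gene start was that of *Ero1l*, an oxidase of the ER, with 71.4, 52.9 and 57.6 CPM in adults and 47.9, 43.0 and 47.4 at P10 and a log2 fold change of 0.40 (SE 0.16, edgeR adjusted p = 0.131). *P4hb*, a protein disulfide isomerase, had the Down start with the smallest p, with 35.4, 28.5 and 23.5 CPM in adults and 49.7, 44.6 and 35.2 at P10 and a log2 fold change of -0.56 (SE 0.18, edgeR adjusted p = 0.0506). These 2 genes act together in forming disulfide bonds. The start of *Txnip*, a glucose-responsive inhibitor of thioredoxin, held 14.5, 14.6 and 14.2 CPM in adults and 23.4, 22.3 and 18.8 at P10, a log2 fold change of -0.57 (SE 0.20, edgeR adjusted p = 0.0658). The starts of *Traf2*, *Edem2* and *Cisd2* were Down at -0.42, -0.57 and -0.37, as was that of *Atp2a2* at -0.42, which encodes the SERCA2 calcium pump and was the sixth by p, named outside the rule. ERSE was in the windows of 7 of 56 genes of the list matched in RefSeq, namely *Calr*, *Canx*, *Creld2*, *Derl3*, *Dnajc3*, *Ero1b* and *Hsp90b1*.

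Marker lists describe the islet cells behind these values. Of 9 endocrine markers, 7 had an ACS. Their TSS class ACS summed to 161 to 220 CPM in adults and 207 to 335 at P10, with 2 of 7 called Down, against 7.87% of all TSS class ACS. All their ACS summed to 695 to 842 and 715 to 934. Of these 71 ACS, 6 were Up and 12 Down, against 12.3% and 6.63% of all ACS. Over all their ACS, the acinar list summed to 409 to 465 CPM in adults and 381 to 413 at P10, the duct list to 244 to 277 and 212 to 236, and the endothelial list to 482 to 561 and 439 to 465. The mesenchymal list summed to 322 to 342 and 306 to 317, and the immune list to 59.6 to 78.2 and 50.4 to 62.2. The acinar list had 5 Up and 4 Down of 60 ACS, the duct list 4 and 5 of 38, and the endothelial list 9 and 2 of 59. The mesenchymal list had 3 Up and 4 Down of 43, and the immune list 1 and 1 of 10. Over all ACS the ages did not overlap for the duct, endothelial and mesenchymal lists, with adults higher. Their TSS class ACS summed to 17.5 to 20.2 CPM in adults and 24.7 to 34.4 at P10 for the duct list (2 of 3 called Down), adults being the lower, 23.5 to 31.7 and 28.9 to 35.5 for the endothelial list, with overlap, and 12.3 to 16.5 and 16.5 to 21.1 for the mesenchymal list. The acinar list had 18.4 to 27.1 and 24.2 to 29.3 CPM there. Of the immune list only 1 gene start had an ACS, with 26.4 to 36.7 CPM in adults and 15.9 to 17.6 at P10, and it was called Up. No TSS class ACS of the acinar, endothelial and mesenchymal lists was called. Of all TSS class ACS, 2.73% were called Up and 7.87% Down. No ACS was listed for *Ppy* and *Chga*, for the acinar enzymes *Cel*, *Amy2a3* and *Cela1*, or for the macrophage markers *Cd68* and *Lyz2*. The part of these cell types in the values of the 10 genes was not tested.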

How the data were processed

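ATAC-seq libraries of 3 adult and 3 P10 rat islet samples were analysed. The authors aligned reads to Rn5 (BWA 0.7.13, per the labels), dropped poorly mapped and mitochondrial reads, ran MACS2 2.1.1 on the concatenated libraries of each age, merged the peaks and deposited raw counts of Tn5 integrations per ACS from pyDNase. Removal of PCR duplicates is not given in the sources used here, so errors cover counting and replicate spread as they stand in the counts. The table also holds their own fold changes and p-values, which were not used.

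Each distinct ACS entered once, with no filter on low counts, and was tested with edgeR 4.0.16 (R 4.3.3; quasi-likelihood, TMM, age as the only term), with Benjamini-Hochberg adjustment over 101603 ACS and the limits p under 0.05 and FDR under 0.2. The SE was the log2 fold change divided by the root of F. Sums per gene were fitted likewise. The genes, lists and tests were chosen with earlier results of these data known. Named were the strongest TSS class ACS of each gene and its called ACS, at most the 5 of smallest p, and of the wider list the called TSS class ACS, at most 5 in each direction. Others are marked as named after their values were seen. Distances are from the first base listed for an ACS to the gene start, as the table gives them; exon and intron are not in it. Alternatives used limma 3.58.1, DESeq2 1.42.0, other scalings, filters and limits, and left out libraries. Figures were drawn with matplotlib 3.10.9.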

Additional observations from a re-analysis of the deposited data

How the results depend on the processing

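No paired analysis was made, because the adults and the pups were different animals and the sources name no link between them. For the 95 ACS of the 10 genes, with 15 Up and 11 Down, DESeq2 gave 7 Down, an FDR under 0.05 gave 7 Up and 3 Down, and total reads gave 1 Up and 66 Down. Leaving out libraries gave 7 to 15 Up and 4 to 14 Down. In the TSS class, with 1 Up and 1 Down, total reads gave 0 Up and 8 Down and an FDR under 0.05 gave 0 of each, while DESeq2 and robust dispersion gave 0 Down. Leaving out libraries gave 0 to 1 Up and 0 to 1 Down. For the wider list, with 36 Up and 28 Down, total reads gave 3 Up and 250 Down, an FDR under 0.05 gave 22 Up and 5 Down, and column sums gave 46 Down. Leaving out libraries gave 22 to 46 Up and 12 to 35 Down, with 22 Up without P10 replicate 3, 14 Down without Adult replicate 6 and 12 Down without P10 replicate 2. For sums per gene, with 0 Up and 1 Down, total reads gave 10 Down and an FDR under 0.05 gave 0, and leaving out libraries gave 0 to 2 Down (2 without Adult replicate 4 or P10 replicate 3). The difference of the TSS class share stayed between -2.02 and -0.891 points without a library. The cause of these changes was not tested. At single ACS and gene sums, over all alternatives, 443 values kept their direction and side of the limits, 91 kept their direction but lost a call, 12 kept it and gained one, and 26 changed sign.

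Signs were followed at the ACS named by the rule and in the gene sums, so not at the Up ACS of *Dnajb9* at 981, 75157 and 931232 bp. They turned with total reads at the ACS of *Atf6* at -772 bp (-0.62) and 122073 bp (-0.13), of *Dnajb9* at 368 bp (-0.81) and 120325 bp (-0.11), of *Eif2ak3* at -15390 bp (-0.22), of *Hspa5* at -133128 bp (-0.31) and of *Wfs1* at 22868 bp (-0.40), and in the sums of *Atf6* (-0.73), *Eif2ak3* (-0.80), *Dnajb9* (-0.64) and *Wfs1* (-0.81). With column sums they turned at *Dnajb9* at 368 bp (-0.07) and in the sums of *Eif2ak3* (-0.04) and *Wfs1* (-0.06), and with a mean of at least 50 counts at *Dnajb9* at 368 bp (-0.06). When libraries were left out, values that changed sign lay within 0.1 of 0. The range was -0.15 to 0.02 at the start of *Ddit3*, -0.07 to 0.09 at that of *Dnajb9*, and, for the sums, up to 0.10 for *Ddit3*, -0.18 to 0.00 for *Xbp1*, -0.25 to 0.06 for *Ern1* and -0.01 to 0.08 for *Wfs1*. Leaving out Adult replicate 4 and P10 replicate 1 together was chosen after seeing the data. Depth limits the weak ACS most, with 1 to 19 integrations per library at the *Hspa5* ACS 72451 bp upstream.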

Other observations

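Several of the genes had ACS just past their annotated ends, and these were compared after their values were seen. Of the 95 ACS, 12 lay up to 5 kb past a gene end, namely 4 at *Herpud1*, 3 at *Dnajb9*, 2 at *Xbp1* and 1 each at *Atf4*, *Ddit3* and *Hspa5*. The 4 of *Herpud1* were called Down, and none of the other 8 was called, against 7.49% Down and 10.1% Up among all 2069 ACS in such a position. P10 replicate 1 was the highest P10 library at 11 of the 12, against 48.3% of all such ACS and 36.2% of all ACS. Adult replicate 4 was the highest adult library at 8 of the 12, against 41.1% and 37.5%. At the ACS 262 bp past the end of *Ddit3*, the same libraries were the highest of their groups, with 15.2, 12.1 and 11.3 CPM in adults and 23.4, 9.70 and 10.7 at P10. Its log2 fold change was -0.19 (SE 0.26) and it was not called.

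In the wider list, the ACS with the smallest p were distal and Up. That of *Itpr2*, a calcium release channel of the ER, lay inside the gene 21977 bp from its start and had 13 CPM in adults against 2.96 at P10, a log2 fold change of 2.1 (edgeR adjusted p = 0.000106). That of *Bcl2*, an inhibitor of cell death, lay inside the gene 65849 bp from its start, with 16.9 CPM against 5.57 and a log2 fold change of 1.58 (edgeR adjusted p = 0.000118). That of *Derl1*, a channel component of ER-associated degradation, lay downstream, 49690 bp from the start, with 11.1 CPM against 4.19 and a log2 fold change of 1.41 (edgeR adjusted p = 0.000375). These 3 were named after their values were seen.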
